A study of Mus musculus with 4 samples.

Results

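The 9 transcription factors described here direct helper and effector differentiation of CD4+ T cells and were examined by gene symbol in bulk RNA-seq of splenic CD4+ T cells. They were taken by name from 55367 gene symbols: *Tbx21*, *Eomes*, *Rora*, *Bcl6*, *Prdm1*, *Maf*, *Ahr*, *Irf4* and *Zeb2*. All 9 were in the count tables and all 9 passed the filter on low counts, which left 12403 genes to test. The 4 libraries came from C57BL/6 mice, 2 of them wild type (WT) and 2 a *Satb1* conditional knockout (cKO) by their labels. The design text names *Satb1* F/F; ThPOK-cre mice, in which Cre under a *ThPOK* driver acts on floxed *Satb1* in cells of the CD4 lineage, so the deletion is not designed for 1 helper subset. The labels do not say whether the WT mice carried Cre or floxed alleles, and they give neither age nor sex. The study's methods describe young adult mice of mixed sexes. Whole CD4+ T cells were sequenced, so conventional cells, regulatory T (Treg) cells and any memory cells were read together.

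In CD4+ T cells each helper fate is set by a small group of transcription factors that activate their own program and restrain the others. T-bet (*Tbx21*) and its T-box relative Eomesodermin (*Eomes*) drive interferon-gamma and cytotoxic genes, and ZEB2 (*Zeb2*) acts with T-bet in terminal effector cells. BCL6 (*Bcl6*) directs follicular helper T (Tfh) cells and opposes Blimp-1 (*Prdm1*), while c-MAF (*Maf*) promotes IL-10, IL-4 and IL-21. RORalpha (*Rora*) takes part in the Th17 program, AHR (*Ahr*) is a ligand-activated sensor of xenobiotic and dietary compounds, and IRF4 (*Irf4*) translates the strength of T-cell receptor signals together with BATF. The comparison asks which of these regulators differed between CD4+ T cells labelled WT and cKO, given that SATB1 organises chromatin in T cells.

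The T-box factors were lower and *Bcl6* was higher in the libraries labelled cKO. *Eomes* fell 2.60-fold and *Tbx21* 2.07-fold, and *Bcl6* rose 1.53-fold. These 3 passed the edgeR quasi-likelihood test at an adjusted p (Benjamini-Hochberg) below 0.05, with 0.0113, 0.0494 and 0.0361 in that order. The value of *Tbx21* stood at the threshold, and DESeq2 gave it an adjusted p of 0.0582. *Irf4*, *Ahr* and *Maf* lay 1.81-fold, 1.77-fold and 1.45-fold above WT with adjusted p of 0.0564, 0.0780 and 0.0673, just outside the threshold. *Rora*, *Prdm1* and *Zeb2* did not pass it, and their libraries overlapped between genotypes. Thus 3 of 9 members were called, 1 higher and 2 lower, where 4.30% of all tested genes were called (2.35% higher and 1.95% lower). Which members were called depended on the settings and on single libraries. DESeq2 called *Eomes* and *Irf4* but not *Tbx21* or *Bcl6*, and edgeR on autosomes alone called *Eomes* and *Bcl6*. When each library in turn was left out, the log2 fold change of *Eomes* ran from -1.71 to -1.10 and that of *Tbx21* from -1.40 to -0.77. That of *Bcl6* ran from 0.56 to 0.67 and that of *Irf4* from 0.49 to 1.14. For 6 members both libraries of 1 genotype lay on the same side of both of the other, 4 higher and 2 lower, beside 50.3% of all tested genes (24.8% higher and 25.4% lower).

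The promoters of the 3 members that passed the edgeR threshold are shown. Each line is the stretch of 250 bases before the RefSeq start on GRCm38.p6, which is the mm10 assembly, written 5′ to 3′ on the strand of the gene. *Tbx21* is chr11:97115332-97115581 on the minus strand, *Eomes* is chr9:118477939-118478188 on the plus strand, and *Bcl6* is chr16:23988853-23989102 on the minus strand. Capitals mark a match, on either strand, to the letters searched for as a T-box site (TCACACC), a RUNX site (TGTGGT), an AP-1 site (TGANTCA), a STAT site (TTCNNNGAA) or an IRF site (GAAA, then NN, then GAAA).
Tbx21: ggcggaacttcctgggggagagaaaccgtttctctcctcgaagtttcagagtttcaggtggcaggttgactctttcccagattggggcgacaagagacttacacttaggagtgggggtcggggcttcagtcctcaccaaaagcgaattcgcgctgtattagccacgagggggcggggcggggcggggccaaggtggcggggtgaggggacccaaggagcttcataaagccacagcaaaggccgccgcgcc
Eomes: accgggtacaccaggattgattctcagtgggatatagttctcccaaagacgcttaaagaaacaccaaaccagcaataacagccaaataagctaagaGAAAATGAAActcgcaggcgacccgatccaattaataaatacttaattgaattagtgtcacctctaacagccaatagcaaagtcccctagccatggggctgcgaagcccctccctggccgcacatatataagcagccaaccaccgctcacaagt
Bcl6: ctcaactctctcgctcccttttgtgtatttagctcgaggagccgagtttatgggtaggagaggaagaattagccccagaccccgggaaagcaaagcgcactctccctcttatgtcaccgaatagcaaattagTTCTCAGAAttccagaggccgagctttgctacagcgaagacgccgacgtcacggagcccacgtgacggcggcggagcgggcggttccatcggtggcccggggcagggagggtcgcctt
The *Tbx21* window held none of these letters. *Eomes* held 1 IRF match, starting 154 bases before the start, and *Bcl6* held 1 STAT match, starting 118 bases before it. Of 32851 such windows across the genome, 2.98% held the IRF letters and 7.02% the STAT letters, while 3.33% held the T-box letters, 14.0% the RUNX letters and 6.75% the AP-1 letters. A second *Bcl6* start, chr16:23981284-23981533, had 3 STAT matches in its window. SATB1 is known for binding AT-rich DNA, and the AT content was 39.2% for *Tbx21*, 53.6% for *Eomes* and 41.6% for *Bcl6*, beside a median of 47.6% over all windows. These matches are letters in a window and describe no binding. The promoter table held 7 of the 9 members.

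The data are read against a few facts of the whole series. Gene counts per library ran from 4495902 to 6555699, and more reads fell outside annotated features (59.4% to 64.5% of the sum of gene, ambiguous and featureless reads) than on genes. *Satb1*, the targeted gene, stood at 868 and 984 CPM (counts scaled to 1e+06 per library) in WT and at 945 and 847 CPM in cKO, which is -0.05 in log2 (SE 0.12, edgeR adjusted p = 0.877). The gene-level count thus does not separate the labels, which give every direction below. Counts cannot tell a transcript that lost its floxed part from an intact one. *Xist* was counted 5447 and 4235 times in WT against 9 and 6 in cKO, and the Y-linked *Ddx3y* 0 and 0 times against 525 and 597. Sex-linked expression thus split exactly as the genotypes did, and for every gene below sex and genotype cannot be told apart. *Cd4*, *Cd3e* and *Lck* were abundant in all libraries, with 1183 to 1279 CPM for *Cd4*. Of 10 T cell markers 0 were called higher and 1 lower. This was *Thy1*, with 1184 and 1158 CPM in WT against 752 and 769 CPM in cKO (edgeR adjusted p = 0.0169). The study describes its replicates as biological, but the labels do not say that libraries came from separate mice, so p-values measure the spread between these libraries. In bulk samples, fewer cells that express a gene and less RNA per cell cannot be told apart.

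**Figure D1:**
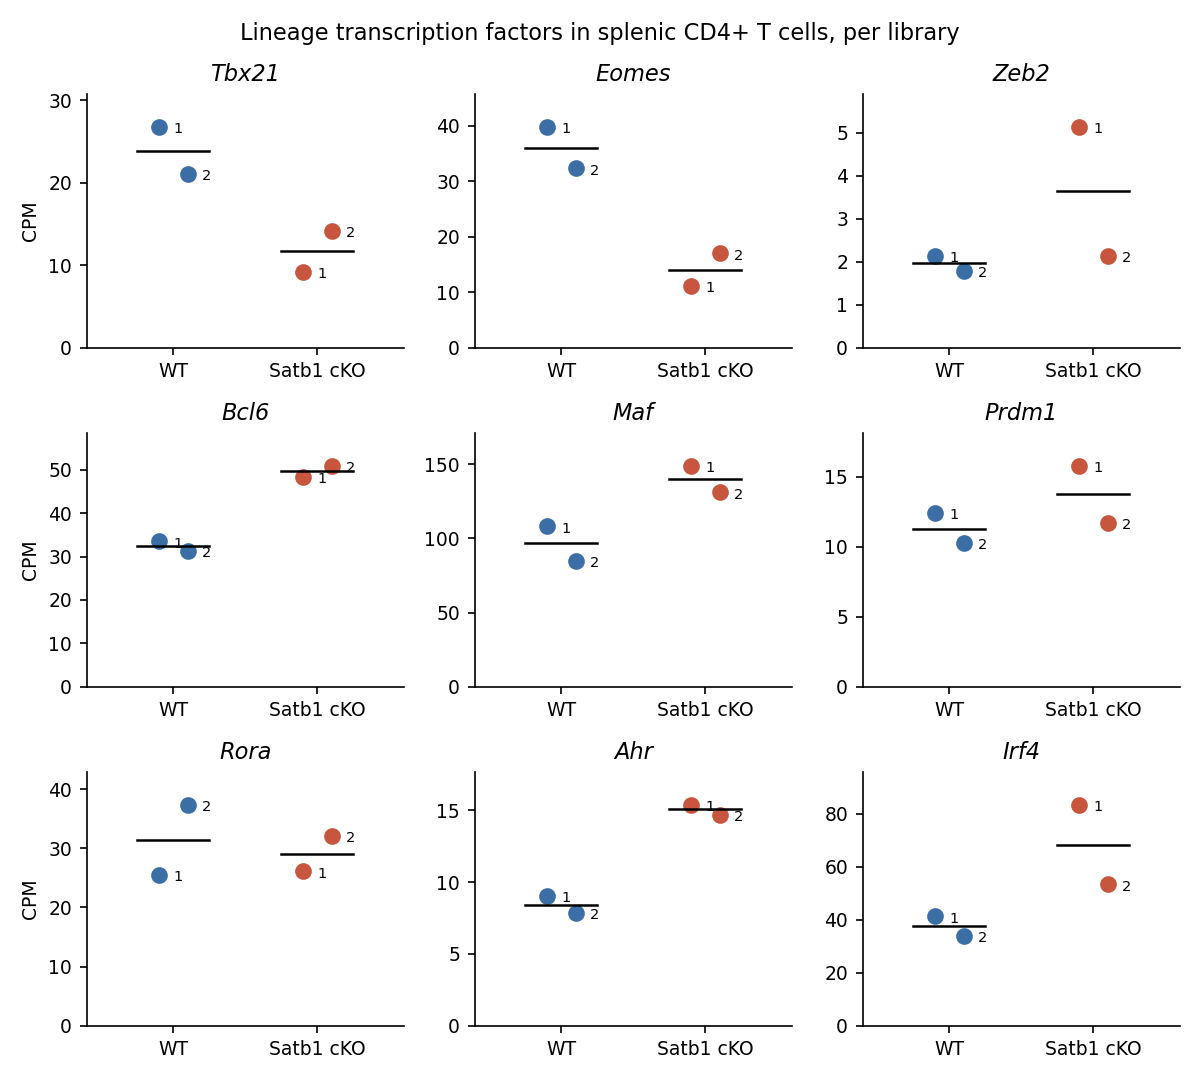
Expression of each factor in CPM (y axis, from 0) in the 2 WT and 2 cKO libraries. Points are libraries with their replicate number, and the black line is the mean. *Tbx21* and *Eomes* in cKO lie below both WT libraries, *Bcl6*, *Maf*, *Ahr* and *Irf4* lie above them, and *Rora*, *Prdm1* and *Zeb2* overlap.

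T-bet is the factor that defines Th1 cells. *Tbx21* (chromosome 11, 97098071 to 97115331 on the minus strand of GRCm38) was counted at 175 and 94 reads in WT 1 and WT 2 and at 48 and 67 in cKO 1 and cKO 2, which is 26.8 and 21.1 CPM against 9.15 and 14.2 CPM. Both cKO libraries were below both WT libraries. Mean expression fell from 23.9 ± 4.03 to 11.7 ± 3.60 CPM (SD, n = 2 each), a log2 fold change of -1.05 with an SE of 0.24 and a 95% interval from -1.61 to -0.50. The adjusted p of 0.0494 in edgeR stood at the threshold, and over 13 alternative analyses it ran from 2.72e-05 to 0.158. The call was lost in 6 of them, among them DESeq2 (0.0582) and the removal of WT 1 (0.158) or WT 2 (0.0932), and the direction held in all 13.

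Eomesodermin supports cytotoxic and memory programs. *Eomes* (chromosome 9, 118478212 to 118486132, plus strand) was read 260 and 144 times in WT and 58 and 80 times in cKO. This corresponds to 39.8 and 32.3 CPM against 11.1 and 17.0 CPM, with no overlap. Its log2 fold change of -1.38 (SE 0.22, interval -1.87 to -0.88, edgeR adjusted p = 0.0113) was the largest of the 9 in size, and 2.89% of all tested genes had a larger one. The adjusted p stayed under 0.05 in all 13 alternatives, with 0.0177 as the highest, and the log2 fold change ran from -1.71 to -1.10. For both T-box factors WT 2 was below WT 1 and cKO 2 was above cKO 1. The count ratio of *Tbx21* to *Eomes* was 0.673 and 0.653 in WT and 0.828 and 0.838 in cKO, so within these libraries the ratio of the pair was higher in cKO. No stretch of 50 bases, the read length, was shared between annotated *Tbx21* and *Eomes* transcripts. Over the 9 members the share of such stretches also found in any other gene was highest for *Maf*, at 4.64%.

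*Zeb2*, which encodes a zinc finger repressor acting with T-bet in terminal effector cells, was near the limit of what this depth can measure. Its counts were 14 and 8 in WT against 27 and 10 in cKO, or 2.14 and 1.79 CPM against 5.14 and 2.13 CPM. One cKO library was high and the other lay among the WT libraries. The log2 fold change was 0.88 with an interval from -0.25 to 2.01 (edgeR adjusted p = 0.386), and it ran from 0.09 without cKO 1 to 1.36. Myeloid cells also express *Zeb2*, and the summed level of 12 myeloid markers was 34.1 and 43.2 CPM in WT against 111 CPM in cKO 1 and 62.5 CPM in cKO 2. Of 9 myeloid markers tested, 3 were called higher and 0 lower, and their part in the *Zeb2* value was not tested. The relative *Zeb1* had a log2 fold change of 0.01 (SE 0.10, interval -0.22 to 0.24), and of 5 tested genes of this paralogue and the corepressors 0 were called by edgeR or DESeq2, with 0 at an unadjusted p under 0.05.

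Next, 20 Th1 and cytotoxic genes were read, among them targets of T-bet and genes that act beside it. This list and those below were chosen with results of these data known. Their calls stand beside 4.30% of all tested genes called, 2.35% higher and 1.95% lower. Of 18 of the Th1 and cytotoxic genes tested, 7 fell and 0 rose in the edgeR test, and 7 and 0 in DESeq2. At an unadjusted p under 0.05 in edgeR, 9 were lower and 3 higher. The median log2 fold change was -0.49 beside -0.0015 over all tested genes. The cytotoxic granule genes carried the largest falls. *Gzmb*, the protease granzyme B, had 62.6 and 54.2 CPM in WT against 3.05 and 5.95 CPM in cKO, a log2 fold change of -3.72 (SE 0.24, adjusted p = 0.000127). *Gzma*, granzyme A, had 108 and 90 counts against 7 and 2, a fitted log2 fold change of -4.30 with an interval from -5.21 to -3.40. *Gzmk* fell by 1.75 on the log2 scale and *Prf1*, the pore protein perforin, by 1.08. *Nkg7*, a cytotoxic granule membrane protein, fell by 1.61 and the chemokine gene *Ccl5* by 1.38.

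The other 11 tested genes of the list were not called. *Cxcr3*, a T-bet target, had 53.2 and 54.0 CPM in WT and 31.1 and 59.5 CPM in cKO, with groups that overlap. *Stat4* and *Runx3*, which act beside T-bet, had log2 fold changes of 0.04 (SE 0.12) and 0.06 (SE 0.14). *Il12rb2* and *Il18rap*, receptor chains for IL-12 and IL-18, had log2 fold changes of -1.47 (SE 0.42) and -0.73 (SE 0.28), with both cKO libraries below both WT libraries. *Fasl*, *Il18r1* and *Il2rb* had 0.74, 0.45 and 0.37, with both cKO libraries above both WT libraries, and *Ifng* was too low to test, with 9 and 13 counts in WT against 5 and 4 in cKO. The list had 6 to 12 calls when a library was left out, of which 6 to 9 were lower. Without cKO 2 it had 12 calls, 9 lower and 3 higher.

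Cells outside the CD4+ gate can also express T-box factors and granzymes, so their markers are given. Of 6 NK cell markers, 4 were at or under 3 counts in all libraries and *Klra8* was at 0, and their sum was 7.19 and 4.71 CPM in WT against 4.57 and 1.49 CPM in cKO. The remaining markers were *Klrk1*, with 21 and 14 counts against 6 and 4 (edgeR adjusted p = 0.0904), and *Klrb1c*, with 24 and 7 against 11 and 2 (edgeR adjusted p = 0.437). *Cd8b1* fell by 0.91 in log2 (adjusted p = 0.0201), from 42.4 and 52.0 CPM to 27.4 and 22.5 CPM, while *Cd8a* stayed between 4.25 and 6.86 CPM in all 4 libraries. The part of these cells in the falls of *Tbx21* and *Eomes* was not tested.

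**Figure D2:**
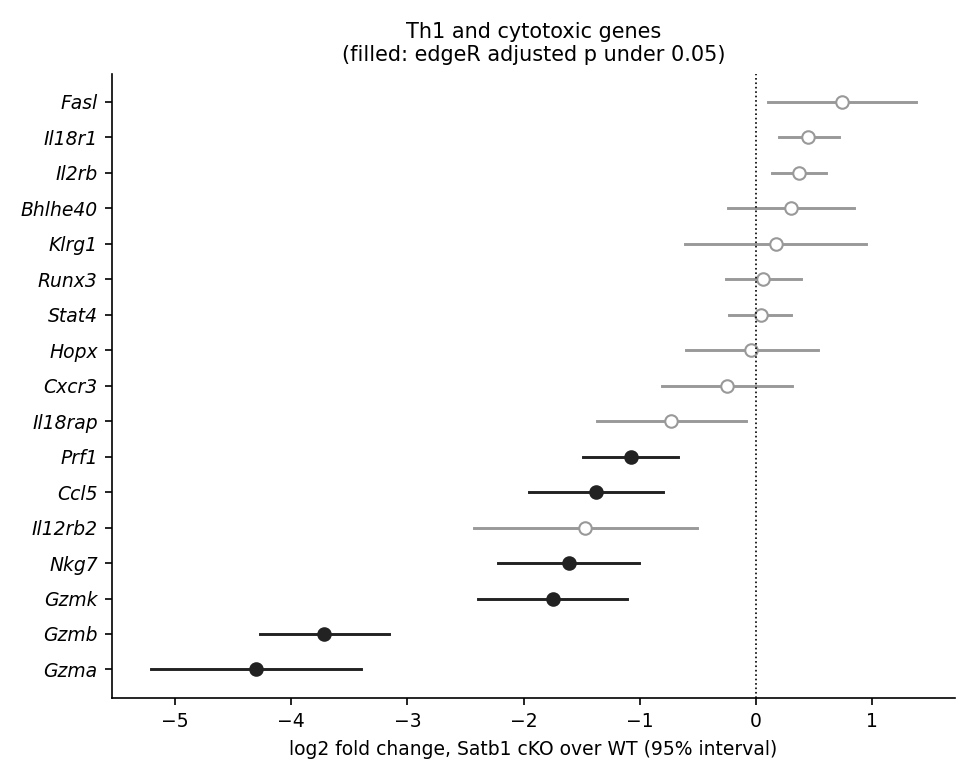
Log2 fold change of cKO over WT (x axis) with its 95% interval for 17 of the 18 tested Th1 and cytotoxic genes, ordered by size. Filled points passed the edgeR threshold, and all 6 of these lie below 0, from *Prf1* at -1.08 to *Gzma* at -4.30.

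BCL6 is the repressor that defines Tfh cells. *Bcl6* (chromosome 16, 23965052 to 23988852, minus strand) stood at 33.5 and 31.4 CPM in WT against 48.4 and 51.0 CPM in cKO. Replicates lay close together and the groups did not overlap. Its mean rose from 32.4 ± 1.51 to 49.7 ± 1.85 CPM (SD, n = 2 each), with a log2 fold change of 0.61 (SE 0.13, interval 0.32 to 0.91, edgeR adjusted p = 0.0361). The value moved little over 13 alternatives, between 0.56 and 0.67. The adjusted p ran from 0.00343 to 0.324, and the call was lost in DESeq2 (0.110), without WT 1 (0.0837) and without WT 2 (0.324).

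Blimp-1, the opponent of BCL6, was measured at lower levels. *Prdm1* had 12.4 and 10.3 CPM in WT against 15.8 and 11.7 CPM in cKO, so the groups overlapped. Its log2 fold change was 0.27 (SE 0.24, interval -0.27 to 0.81, adjusted p = 0.601 in edgeR), and a change of up to 1.76-fold lies within the interval. The count ratio of *Bcl6* to *Prdm1* was 2.70 and 3.04 in WT and 3.06 and 4.36 in cKO, ranges that nearly touch.

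c-MAF acts in Tfh cells and in cells that make IL-10. *Maf* (chromosome 8, 115682942 to 115707794, minus strand) had 708 and 379 counts in WT and 784 and 618 in cKO, which is 108 and 84.9 CPM against 149 and 131 CPM, with no overlap. The log2 fold change was 0.53 (SE 0.14, interval 0.22 to 0.84), and the edgeR adjusted p of 0.0673 was past the threshold in 7 of 13 alternatives and not in the rest. It ran from 0.000120 without cKO 2 to 0.520 without WT 2, where the log2 fold change was 0.37, and was also under 0.05 without WT 1 (0.0154) and without cKO 1 (0.0361). The antisense transcript *Gm15655* covers 5.34% of the exonic length of *Maf* and had a log2 fold change of 0.68 (edgeR adjusted p = 0.0577). Whether reads were counted by strand is not given, so reads of the pair may not be told apart.

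Of 12 tested Tfh genes, 1 rose and 2 fell in the edgeR test, while at an unadjusted p under 0.05 there were 5 higher and 2 lower. The log2 fold change was above 0 for 10 and below 0 for 2, with a median of 0.10. *Pdcd1*, the gene of the receptor PD-1, rose from 27.2 and 24.2 CPM to 49.9 and 45.7 CPM, with a log2 fold change of 0.89 (adjusted p = 0.0113). *Pou2af1*, a coactivator of octamer factors, fell by 1.14 and *Slamf6*, a receptor of the SLAM family, by 0.44. *Cxcr5*, the receptor that takes Tfh cells to the follicle, had 57.4 and 55.3 CPM in WT and 47.4 and 67.6 CPM in cKO, and *Icos* and *Btla* also overlapped between genotypes. *Il21* had 14 and 6 counts against 19 and 24, a log2 fold change of 1.26 (SE 0.43) that was not called. *Angptl2*, *Cd200* and *Il6st* were not called either, at 0.63, 0.42 and 0.23 in log2, each with both cKO libraries above both WT libraries. *Il4* had at most 3 counts in any library.

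Of the genes linked to c-MAF and Blimp-1 through IL-10 and inhibitory receptors, 7 were tested and 2 rose, *Pdcd1* and *Ctla4*, with 0 falling in the edgeR test. *Ctla4*, an inhibitory receptor that is high in Treg cells, had 75.7 and 61.4 CPM in WT against 104 and 102 CPM in cKO. *Il10* itself had 12 and 9 counts in WT and 12 and 13 in cKO, which is too few to resolve a modest change (log2 fold change 0.39, SE 0.42). *Lag3* and *Tigit* overlapped between genotypes. Treg cells express *Maf*, *Irf4*, *Prdm1* and *Ahr* as well, and of 10 Treg markers 4 were called higher and 1 lower, led by *Foxp3*, the defining factor of these cells, at 142 and 121 CPM in WT against 405 and 547 CPM in cKO. Without WT 2, 1 Treg marker was called, higher, and without cKO 1 there were 8, 7 higher and 1 lower. The part of Treg cells in the values of these factors was not tested.

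**Figure D3:**
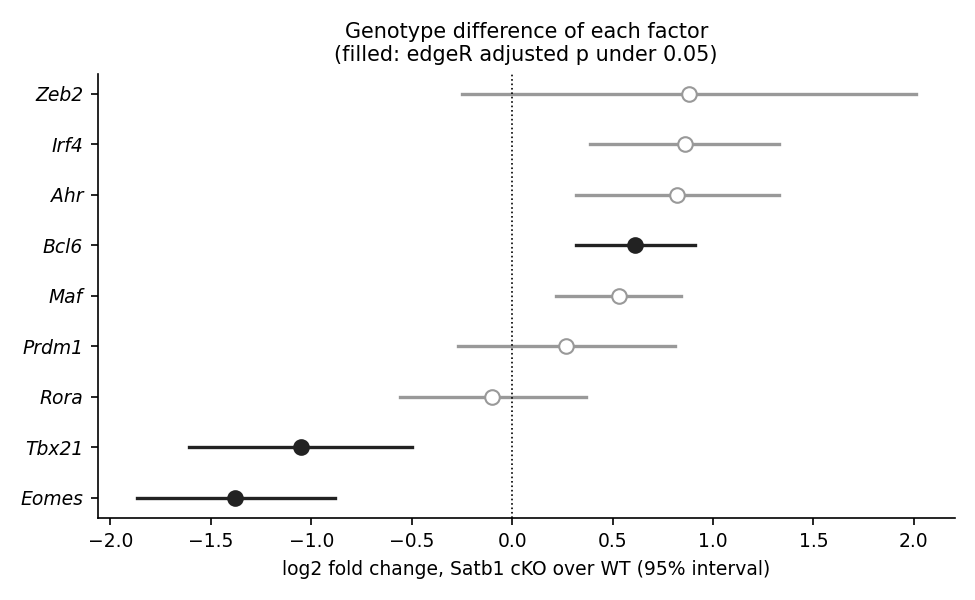
Log2 fold change of cKO over WT (x axis) with its 95% interval for the 9 factors. Filled points passed the edgeR threshold. *Eomes* at -1.38 and *Tbx21* at -1.05 lie below 0 and *Bcl6* at 0.61 above it, and the open points of *Irf4*, *Ahr* and *Maf* have intervals that leave out 0 without an adjusted p under 0.05.

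RORalpha was the member closest to no difference. *Rora* (chromosome 9, 68653786 to 69388246, plus strand) had 25.5 and 37.4 CPM in WT and 26.1 and 32.1 CPM in cKO. Replicate 2 was higher than replicate 1 in both genotypes, and the groups overlapped. The log2 fold change was -0.10 (SE 0.20, interval -0.56 to 0.37, edgeR adjusted p = 0.844), and it turned to 0.18 without WT 2 and 0.05 without cKO 1. Of 5 tested Th17 genes, 1 fell and 0 rose in the edgeR test (1 lower and 1 higher at an unadjusted p under 0.05), with a median log2 fold change of -0.39. That call was lost in DESeq2, after thinning and without either WT library. The cytokine genes *Il17f* and *Il22* had 0 counts in all libraries, and *Il17a* had at most 1.

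AHR waits in the cytoplasm with a chaperone complex until it binds a ligand and pairs with ARNT. *Ahr* (chromosome 12, 35497974 to 35535038, minus strand) had 59 and 35 counts in WT and 81 and 69 in cKO, or 9.02 and 7.84 CPM against 15.4 and 14.7 CPM. Replicates lay close and the groups did not overlap. The log2 fold change was 0.82 (SE 0.22, interval 0.32 to 1.33, edgeR adjusted p = 0.0780), and 4 of 13 alternatives gave an adjusted p under 0.05, over a range from 0.0134 to 0.435, the last without WT 2. Among the fits with a library left out, the adjusted p passed without cKO 2 (0.0211). Of 5 genes of its complex, 2 rose. *Ptges3*, the cochaperone p23, rose by 0.78 in log2 (adjusted p = 0.00929) and *Hsp90aa1* by 0.69 (adjusted p = 0.00738), whereas *Arnt* had a log2 fold change of 0.14 (SE 0.11). Heat shock genes rose as well, with 6 of 6 tested called higher, and this list shares *Hsp90aa1*. Without WT 2, 0 genes of the complex and 2 heat shock genes were called. The target genes *Cyp1a1*, *Cyp1b1* and *Ahrr* had at most 1 count in any library, and of 3 tested targets 0 were called by edgeR or DESeq2, with 0 at an unadjusted p under 0.05. *Tiparp*, also a target, had 21.0 and 21.1 CPM against 27.1 and 23.0 CPM (log2 fold change 0.25, SE 0.16).

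IRF4 is induced by T-cell receptor signals and binds DNA with BATF and JUN proteins. *Irf4* (chromosome 13, 30749226 to 30766976, plus strand) had 270 and 151 counts in WT and 438 and 251 in cKO, which is 41.3 and 33.8 CPM against 83.5 and 53.4 CPM. Both cKO libraries were above both WT libraries, and cKO 1 stood well above cKO 2. The log2 fold change was 0.86 (SE 0.21, interval 0.39 to 1.33), and the edgeR adjusted p of 0.0564 fell under 0.05 in 9 of 13 alternatives, over a range from 7.72e-08 to 0.322, the last without WT 2. Without WT 1 it was 0.00359. Without cKO 1 the log2 fold change was 0.49 (adjusted p = 0.0428), and without cKO 2 it was 1.14 (adjusted p = 7.72e-08). B cells express *Irf4* too, and the sum of 11 B cell markers was 17.0 and 18.6 CPM in WT, 69.7 CPM in cKO 1 and 28.9 CPM in cKO 2. *Pax5*, the defining factor of B cells, had 5 and 4 counts in WT and 53 and 15 in cKO. The part of B cells in the *Irf4* value was not tested. Of 8 tested partners of IRF4, 0 were called by edgeR or DESeq2 and 5 had an unadjusted p under 0.05, while 5 were called without cKO 2. Of the 8, 7 had a log2 fold change above 0, and the median was 0.32. *Batf* had 35.5 and 42.6 CPM in WT and 58.1 and 41.4 CPM in cKO, again highest in cKO 1. *Spib*, a partner of IRF4 in B cells, had 5 and 3 counts in WT, 30 in cKO 1 and 7 in cKO 2.

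Levels were compared between the factors only per length, as CPM divided by the exonic length in kilobases (RPKM). In WT the order was *Maf* (mean 11.7 RPKM), *Tbx21* (9.61), *Eomes* (8.67), *Irf4* (7.66), *Bcl6* (4.84), *Rora* (2.41), *Prdm1* (2.03), *Ahr* (1.37) and *Zeb2* (0.0986). The first 4 form a run in which each neighbour pair overlapped between libraries, and *Rora* and *Prdm1* overlapped too. In cKO the order was *Maf* (17.0 RPKM), *Irf4* (14.0), *Bcl6* (7.42), *Tbx21* (4.70), *Eomes* (3.38), *Prdm1* (2.47), *Ahr* (2.44), *Rora* (2.23) and *Zeb2* (0.182). There *Maf* overlapped with *Irf4*, and each neighbour pair from *Tbx21* down to *Rora* overlapped. *Bcl6* was below *Tbx21* and *Eomes* in both WT libraries and above both of them in each cKO library. Lengths are the union of annotated exons, so a gene with many long annotated ends, such as *Zeb2* with 19942 bases, gets a low RPKM.

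The balance between factors was read as the ratio of their counts within a library, which needs no scaling between libraries. The ratio of *Tbx21* to *Bcl6* was 0.799 and 0.671 in WT and 0.189 and 0.279 in cKO. Against *Maf* it went from 0.247 and 0.248 to 0.0612 and 0.108. *Gata3*, the defining factor of Th2 cells, had 93.0 and 82.5 CPM in WT and 117 and 124 CPM in cKO (log2 fold change 0.45, SE 0.11, not called by edgeR), and the ratio of *Tbx21* to *Gata3* went from 0.288 and 0.255 to 0.0779 and 0.115. In each of these pairs both cKO libraries lay below both WT libraries. These ratios follow from the changes of *Tbx21* given above and are no further evidence.

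**Figure D4:**
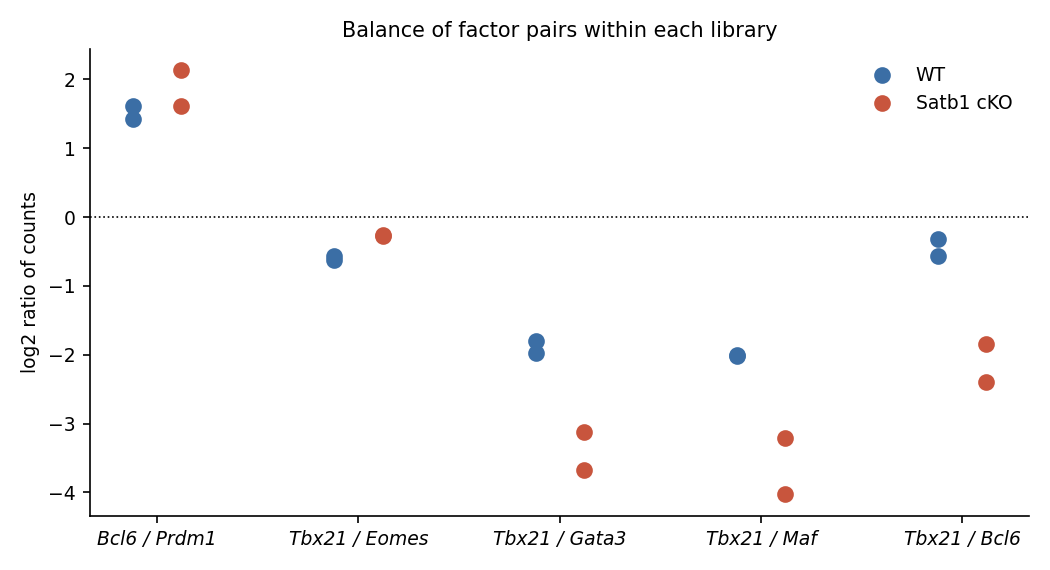
Log2 ratio of the counts of factor pairs (y axis) in each library, with 2 points per genotype. The ratios of *Tbx21* to *Bcl6*, *Maf* and *Gata3* are lower in both cKO libraries, from -2.40 to -4.03 in cKO 1 against -0.32 to -2.02 in WT 1.

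Regulators of the naive and memory states, many of which oppose effector factors, were read next. Of 11 tested, 1 rose and 1 fell in the edgeR test, beside 4.30% of all tested genes called, with a median log2 fold change of -0.03. *Id3*, an inhibitor of E proteins, rose by 0.84 in log2, from 49.1 and 48.6 CPM to 86.1 and 88.4 CPM. *Myb*, a factor of progenitor and stem-like memory cells, fell by 1.32, from 98.4 and 105 CPM to 37.3 and 44.2 CPM. *Tcf7*, which favours memory and Tfh fates, had 2263 and 2469 CPM in WT and 2429 and 1800 CPM in cKO, and *Bach2*, a repressor of effector genes, had a log2 fold change of -0.15 (SE 0.10). *Foxo1*, *Klf2* and *Foxp1* all lay within 0.07 of 0 in log2. Markers of these states moved in part: of 9 tested naive T cell markers 1 was called higher and 2 lower. Of 9 tested markers of activated or memory T cells, 0 were called higher and 2 lower. The part of such cells in the values of the members was not tested. Among 13 other lineage regulators, 2 rose, *Foxp3* and *Zbtb7b*, and 1 fell. *Zbtb7b*, which encodes ThPOK, the CD4 lineage factor, rose by 0.66 in log2, from 232 and 200 CPM to 337 and 345 CPM (adjusted p = 0.0117), and it is the gene after which the Cre driver is named. Of 6 tested Th2 genes, 1 rose, *Il4ra*, with a log2 fold change of 0.51 at an adjusted p of 0.0490 in edgeR.

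**Figure D5:**
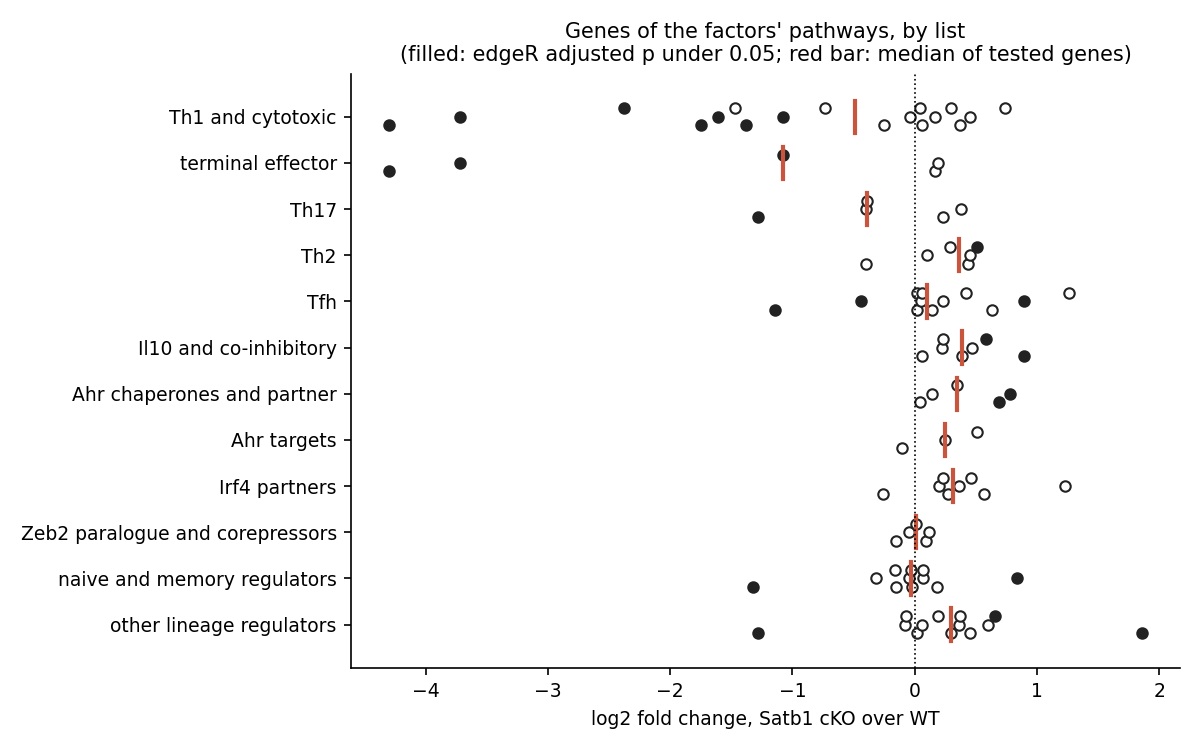
Log2 fold change of cKO over WT (x axis) for the tested genes of 12 lists, with 1 point per gene and the median as a red bar. Filled points passed the edgeR threshold. Filled points of the Th1 and cytotoxic list lie below 0 without exception, and those of the IL-10 and chaperone lists lie above 0.

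Over all 12 lists, 113 genes other than the members were read and 87 tested. Of these, 8 rose and 11 fell, or 21.8%, beside 4.30% of all tested genes. The lists were chosen with results of these data known, so this share is a description of the lists. The count rests in part on WT 2: without it 9 were called, 1 higher and 8 lower, and the calls fell to 0 in the Th2 and IL-10 lists and to 1 each in the Tfh list, the naive and memory regulators and the other lineage regulators. Without WT 1 the Th2 list had 0 calls as well.

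The genes whose profile over the 4 libraries came nearest to each called member were found by the distance between centred log2 CPM values. For *Tbx21* they were *Ccnf* (distance 0.0998), *Fam186b* (0.103) and *Ckap2* (0.114). For *Eomes* they were *Pbk* (0.0661), *Nsl1* (0.126) and *Zfp580* (0.143), and for *Bcl6* they were *Ssx2ip* (0.0334), *Tmem65* (0.0375) and *Ptges3-ps* (0.0386). *Ccnf* encodes a cyclin of the F type, and *Ckap2*, *Pbk* and *Nsl1* have roles in mitosis. Some of these genes had few reads: *Pbk* had 23 and 13 counts in WT against 4 and 6 in cKO, and *Nsl1* 29 and 14 against 5 and 8. Whether the nearest genes share a role with the members was not tested. None of the 9 was called by edgeR, with adjusted p from 0.0582 to 0.231.

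The genomic surroundings of the members were also read. Within 500 kb of the 9 genes, 41 other genes were tested, and 3 were called higher and 0 lower, or 7.32%, beside 4.30% of all tested genes (2.35% higher and 1.95% lower). Near *Tbx21*, 2 of 20 neighbours rose. These were *Sp6*, a zinc finger factor gene with a log2 fold change of 1.16 (edgeR adjusted p = 0.0294), and *Gm11532*, with 1.45 (adjusted p = 0.0126), which overlap on opposite strands and may share reads. Near *Ahr*, *Tspan13* rose by 0.80 (adjusted p = 0.0110). The 5 tested neighbours of *Eomes* and the 2 of *Bcl6* held no call. The neighbours were named after their values were seen.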

How the data were processed

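RNA-seq was done on splenic CD4+ T cells, with 2 libraries labelled WT and 2 labelled *Satb1* cKO. Per the labels and the submitters' processing notes, the authors aligned 50-base reads to mm10 with HISAT2 2.1.0 and counted reads per gene with HTSeq 0.11.1 (the study's methods name a slightly earlier HTSeq release), and the deposited values are raw counts with no scaling. The annotation and strand setting are not given in the sources used here. HTSeq summary lines, 59.4% to 64.5% of reads outside features and 0.611% to 0.734% ambiguous, were kept out of library sizes and tests.

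Counts were analysed in R 4.3.3 with edgeR 4.0.16: filterByExpr, TMM scaling (factors from 0.981 to 1.02) and the two-sided quasi-likelihood F test on genotype, adjusted over 12403 genes. Calls needed an adjusted p below 0.05. CPM use TMM-scaled library sizes. An SE is the log2 fold change over the square root of F. The smallest p of an exact permutation of 2 against 2 libraries is 0.333, so none was run. Of the symbols, 2002 had no match in GENCODE M21. Chi-square over its degrees of freedom was 2.83 between WT replicates and 6.68 between cKO replicates, more than sampling noise gives. Positions, exonic lengths and overlaps came from GENCODE M21, promoters from RefSeq GRCm38.p6, and plots from matplotlib 3.10.9.

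The members and gene lists were chosen with earlier results of these data known. Named genes were the members, *Satb1*, *Gata3*, *Foxp3*, called genes of each list up to 6 by p, and the 3 nearest profiles of each called member. Other genes named were chosen after their values were seen, to show list members that did not change and markers of other cells. DESeq2 1.42.0, other scalings, filters, thresholds, thinned counts, a replicate block, autosomes alone and leaving out each library were tried, and the list counts under these were added after seeing the data. A few genes that this rule or the lists hold are counted but not reported here by name. The procedure was tested on simulated counts.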

Additional observations from a re-analysis of the deposited data

How the results depend on the processing

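With other settings, *Eomes* kept its direction and call in 13 of 13 fits. *Tbx21* kept its direction but lost its call with total counts (-1.05), DESeq2 (-1.04), thinned counts (-1.0) and autosomes alone (-1.05). *Bcl6* lost its call in DESeq2 (0.62). Calls were gained by *Maf* without the low-count filter (0.53), in the likelihood ratio test (0.53), thinned (0.57) and with the replicate block (0.54). *Ahr* gained one without the filter (0.82), in the likelihood ratio test (0.82) and with the block (0.83). *Irf4* gained one with total counts (0.86), no filter (0.85), DESeq2 (0.87), the likelihood ratio test (0.86), thinning (0.85) and the block (0.85). *Prdm1* and *Zeb2* were called in 0 of 13.

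The 3 members called became 6 (4 higher, 2 lower) without the filter, in the likelihood ratio test and with the replicate block, and 0 at an adjusted p under 0.01. The 533 genes called became 1367, 1096 and 1165 under the first 3 of these, 153 at 0.01 and 286 when a log2 change of 1 or more in size was also required. The 19 list genes called became 31 without the filter, 9 at 0.01 and 11 with the fold limit. The 7 Th1 and cytotoxic genes called became 11 without the filter and with the block, and 3 at 0.01.

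When a library was left out, the lone library of its genotype was assumed to vary like the others. Members called then ran from 1 (without WT 2) to 6 (without cKO 2), with 3 without WT 1 and 5 without cKO 1. Genes called ran from 180 to 1790 in the same fits, list genes from 9 to 36, and Th1 and cytotoxic genes from 6 to 12. *Tbx21* ran from -1.40 to -0.77, *Bcl6* from 0.56 to 0.67, *Maf* from 0.37 to 0.73, *Ahr* from 0.73 to 0.95 and *Irf4* from 0.49 to 1.14. *Rora* ran from -0.36 to 0.18, with reversed signs of 0.18 without WT 2 and 0.05 without cKO 1. *Satb1* ran from -0.13 to 0.04, with reversed signs of 0.04 without WT 2 and 0.03 without cKO 2. What causes these shifts was not tested. Deviations of same-numbered libraries correlated by 0.0642, and the numbers name no shared animal.

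Of the members, *Zeb2* had the fewest reads, with 8 to 27 counts per library, and the largest SE, 0.50.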
